A study of Mus musculus with 3 samples.

Results

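The Hox genes encode homeodomain transcription factors that lie in 4 clusters, Hoxa to Hoxd. They were taken here as all symbols made of Hox, a cluster letter and a number, among probes annotated with a single symbol, in the order of cluster and paralog number. Such probes stood for 34 Hox genes, and 31 of these had a ratio on all 3 arrays, out of 14047 genes with such ratios. Hoxa3, Hoxb13 and Hoxd13 had ratios on arrays 1 and 3 alone and were described but not tested.

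Each of the 3 two-colour oligonucleotide arrays compared RNA of both stages directly, with no common reference. Per the labels, channel 1 held microdissected metanephric mesenchyme of CD1 mouse embryos at 10.5 days post coitum (dpc), and channel 2 held metanephroi of the same strain at 11.5 dpc, both as pools of both sexes with no genetic change or treatment named. The mesenchyme is the tissue that forms the nephrons, and the metanephros at the later stage also holds the ureteric bud, the epithelial outgrowth that forms the collecting ducts. Arrays 1 and 2 were labelled in the order red/green, and array 3 in the order green/red. Whether separate dissections went onto the arrays is not in the labels, so p-values cover the variation from array to array alone, and that variation can be technical.

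All values are log2 ratios of the channels, and the sources used here do not settle which stage is the numerator. A positive and a negative ratio therefore stand for more RNA at opposite stages, without saying which. A ratio gives no level, so the labelled tissues could not be checked against the presence of their markers. In such whole tissues, fewer cells that use a gene and less of its RNA in each cell cannot be told apart. Across 19660 probes, arrays 1 and 2 had a Pearson correlation of 0.324, while array 3 had 0.0517 with array 1 and 0.0148 with array 2. Spearman correlations, which rest on ranks, were 0.466, 0.211 and 0.171 in the same order. The sign matched in 71.1%, 60.9% and 59.0% of all genes. Among the 31 Hox genes it matched in 20, 22 and 17.

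Within each cluster the genes are numbered by paralog group, from 1 at the end used earliest and most anteriorly in the embryo to 13 at the end used latest and most posteriorly. Genes of the same number in different clusters are paralogs and often act redundantly. HOX proteins bind DNA together with TALE homeodomain partners of the PBX and MEIS families. In the kidney the group 11 genes are needed in the metanephric mesenchyme, where they act with the transcriptional regulators Eya1 and Pax2 to switch on Six2 and Gdnf, the latter being the ligand that draws out the ureteric bud.

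Hox genes lay on both sides of 0, with 18 positive and 13 negative means. Hoxd4 and Hoxa5 on the positive side and Hoxa7 on the negative side had the smallest p of the 31. No Hox gene passed adjustment over all genes. The test was limma's moderated test of the mean ratio against 0, two-sided, with Benjamini-Hochberg adjustment over 14047 genes at 0.05. It called 0 genes of any kind, which is 0%, and the smallest adjusted p was 0.149 over all genes and 0.153 over the Hox genes. At an unadjusted p under 0.05, 10 of 31 Hox genes passed, or 32.3%, against 19.6% of all genes. Of these, 7 were positive, where 9.89% of all genes passed on that side, and 3 were negative, where 9.69% did. Whether the Hox share differs from that of all genes was not tested. Leaving out array 1 gave a count of 4, leaving out array 2 gave 6 and leaving out array 3 gave 9, against background shares of 8.23%, 10.3% and 21.0%. With array 3 turned the other way it was 2, Hoxd1 and Hoxd12, both outside the 10, against a background of 5.55%. Hoxd4, Hoxa5 and Hoxa7 stayed among those that passed whichever array was left out. Hoxb3 and Hoxd8 missed whichever array was left out, Hoxb5, Hoxc6 and Hoxd10 missed without array 1 and without array 2, Hoxb6 missed without array 1, and Hoxa13 missed without array 1 and without array 3. With all arrays kept, Hoxa13, Hoxb6, Hoxc6 and Hoxd10 also missed without variance moderation. Hoxa13 missed with a dye term, Hoxb3 missed with the probe of median ratio, and Hoxc6 missed under further alternatives.

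All 3 arrays shared a sign in 14 Hox genes, 10 positive and 4 negative. That is 45.2%, close to the 45.5% of all genes, and on the positive and the negative side the background was 22.9% and 22.5%. The median mean ratio of the Hox genes was 0.20, beside -0.0019 for all genes. It fell to 0.12 without array 1, 0.13 without array 2 and 0.14 without array 3, and with array 3 turned it was 0.038, beside 0.037 for all genes. The Hox median on the single arrays was 0.06, 0.38 and 0.28, beside 0.04, 0.04 and -0.06 for all genes. The smallest Hox median came from array 1, where it lay near that of all genes. The median SD over arrays was 0.41 for Hox genes and 0.34 for all genes.

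**Figure D1:**
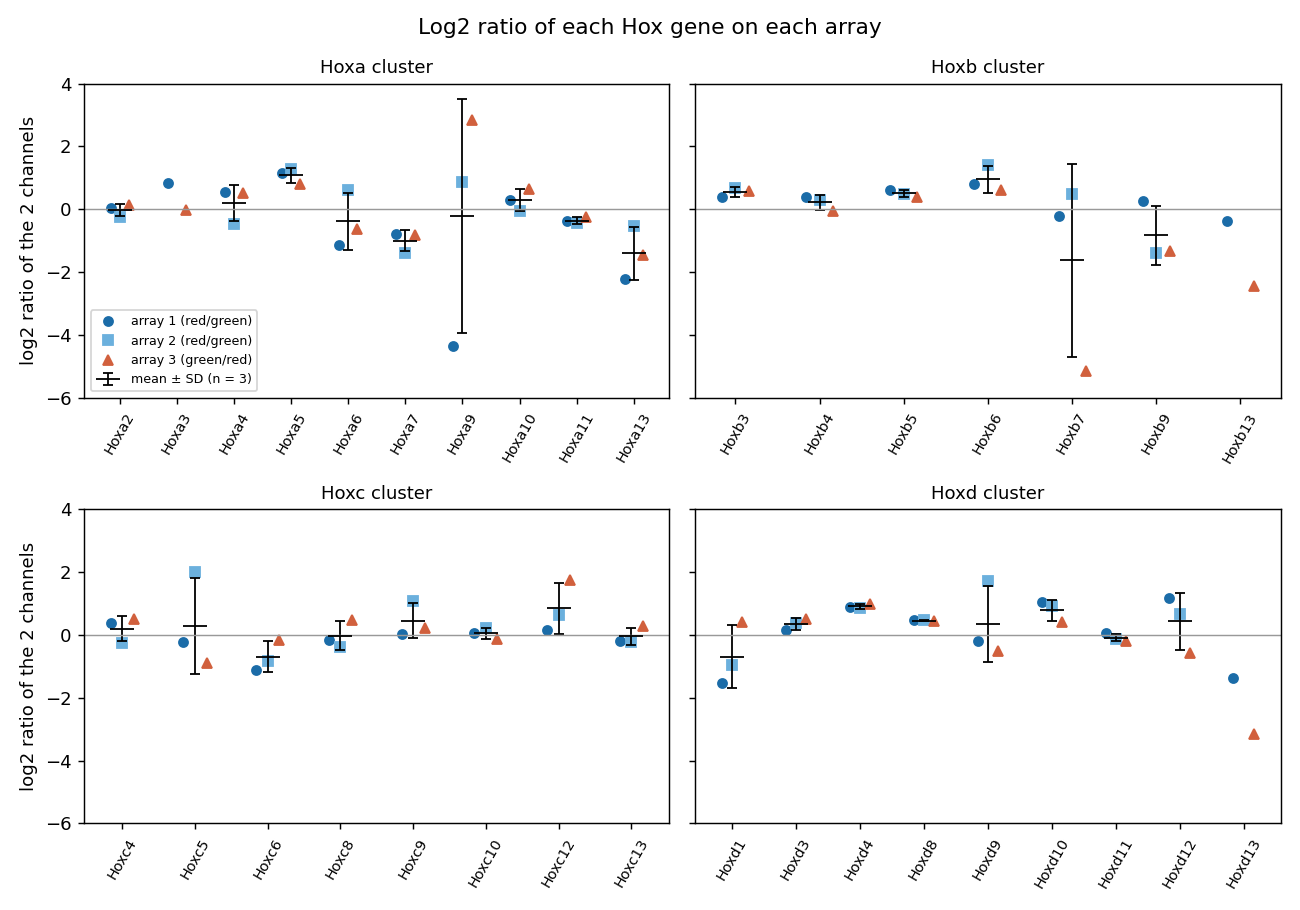
Log2 ratio of the 34 Hox genes with a probe on each of the 3 arrays, in 4 panels by cluster and ordered by paralog number, with the mean and SD as black bars for the 31 genes with 3 values. The arrays nearly coincide for Hoxd4, Hoxd8, Hoxb5 and Hoxa11, and lie several log2 units apart for Hoxa9 and Hoxb7.

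The anterior genes of groups 3 to 5 were all on the positive side. All 9 measured members had a positive mean, with a median of 0.35 and a range from 0.20 to 1.08, where 49.8% of all genes had a positive mean. These groups were put together after their values were seen, so the count is a description. It was 8 of 9 with a dye term and without array 2, and 7 of 9 with array 3 turned. Hoxd4, a retinoic acid responsive gene that patterns the hindbrain and neck vertebrae, had ratios of 0.89, 0.85 and 1.00 on arrays 1, 2 and 3, a mean of 0.91 ± 0.08 (SD, n = 3) and a 95% interval from 0.53 to 1.30. The arrays lay close together and all were positive. Its unadjusted p was 0.00303 and its adjusted p by limma was 0.153. Hoxa5, which patterns the lung and the neck to thorax transition, had 1.14, 1.28 and 0.82, a mean of 1.08 ± 0.24 and an adjusted p by limma of 0.157. That mean, a 2.11-fold difference, was the highest of all 31 genes. Both stayed at an unadjusted p under 0.05 under 13 of 14 alternatives, the exception being array 3 turned. Several of these could hardly change the outcome, as both genes have 1 probe and no ratio above 3 in size. For them, other ways to join probes, the limit of 3 on ratios and values on at least 2 arrays left the estimate unchanged.

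The paralogs of these genes had smaller means. Hoxb5, a gene of the shoulder level and the enteric nervous system, had 0.62, 0.50 and 0.40, with a mean of 0.50 ± 0.11, an unadjusted p of 0.0242 and an adjusted p by limma of 0.198. Hoxc5 had -0.22, 2.01 and -0.90, so that its mean of 0.29 ± 1.52 rested on array 2. In group 4, Hoxa4 at 0.20 ± 0.57, Hoxb4 at 0.21 ± 0.24 and Hoxc4 at 0.20 ± 0.41 each had an array on the other side of 0, and Hoxd4 was the member with the same sign throughout. In group 3, Hoxb3 was measured by a pair of probes, with means of 0.44 ± 0.28 and 0.65 ± 0.25, both positive on every array. Averaged, they gave 0.37, 0.67 and 0.59, a mean of 0.54 ± 0.15, an unadjusted p of 0.0225 and an adjusted p by limma of 0.194. Hoxd3 had 0.35 ± 0.18, positive on all arrays, with an unadjusted p of 0.0886. Hoxa3 had 0.84 on array 1 and -0.01 on array 3.

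Hoxd1 of group 1 and Hoxa2 of group 2 had negative means. Hoxd1 had -1.54 and -0.94 on arrays 1 and 2 and 0.41 on array 3, with a mean of -0.69 ± 1.00. Hoxa2, a hindbrain and second pharyngeal arch gene, had a mean of -0.02 ± 0.20.

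**Figure D2:**
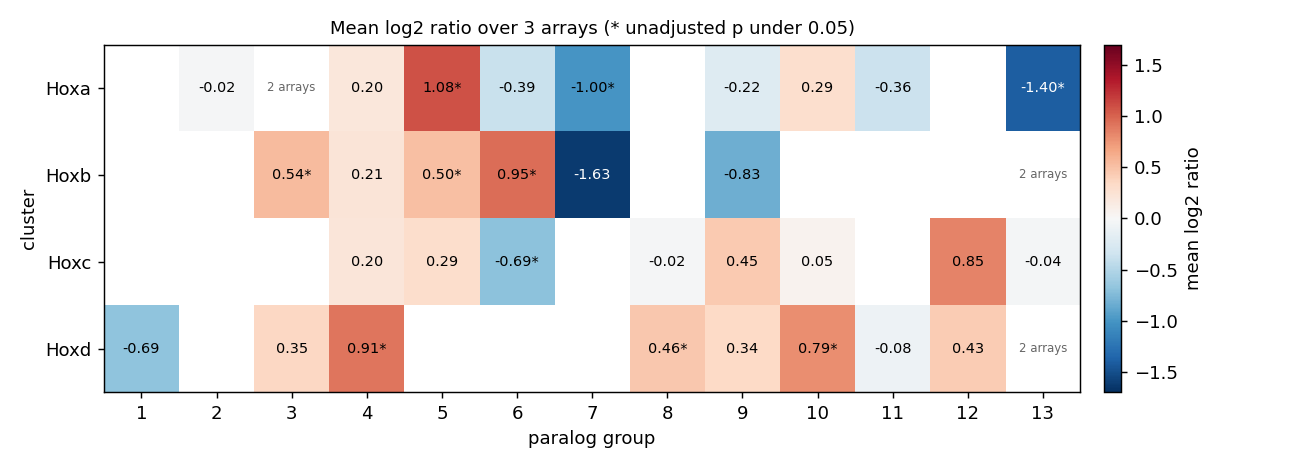
Mean log2 ratio over 3 arrays for each Hox gene, with clusters as rows and paralog groups as columns, red for positive and blue for negative means. Stars mark an unadjusted p under 0.05; genes with ratios on arrays 1 and 3 alone are marked 2 arrays, and empty cells hold no gene analysed here. Columns 3 to 5 are red in every filled cell, and column 7 is blue in both.

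Promoter windows are shown for the 3 genes with the smallest p, Hoxd4, Hoxa5 and Hoxa7, and for Hoxd8, whose arrays agreed most closely. Each is the 250 bases before the start of the gene in RefSeq on GRCm38.p6, read 5′ to 3′ along the gene, and capitals mark a motif found. The motifs searched on both strands were the TATA box TATAAA, the CCAAT box CCAAT, the GC box GGGCGG, the Cdx motif TTTATG of the caudal factors that regulate Hox genes, and the Pbx-Hox motif TGATNNAT. Hoxd4 lies at chr2:74721728-74721977 on the plus strand, Hoxd8 at chr2:74704365-74704614 on the plus strand, Hoxa5 at chr6:52204588-52204837 on the minus strand and Hoxa7 at chr6:52218574-52218823 on the minus strand.
Hoxd4: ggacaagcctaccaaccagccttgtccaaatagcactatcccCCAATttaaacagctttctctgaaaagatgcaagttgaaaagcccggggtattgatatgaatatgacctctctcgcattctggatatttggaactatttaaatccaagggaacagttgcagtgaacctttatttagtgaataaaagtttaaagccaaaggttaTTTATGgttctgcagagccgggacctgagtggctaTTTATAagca
Hoxd8: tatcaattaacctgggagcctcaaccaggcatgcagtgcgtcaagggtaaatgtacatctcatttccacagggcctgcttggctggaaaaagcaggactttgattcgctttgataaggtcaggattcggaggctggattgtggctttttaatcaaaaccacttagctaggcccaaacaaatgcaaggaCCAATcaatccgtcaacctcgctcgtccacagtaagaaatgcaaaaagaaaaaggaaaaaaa
Hoxa5: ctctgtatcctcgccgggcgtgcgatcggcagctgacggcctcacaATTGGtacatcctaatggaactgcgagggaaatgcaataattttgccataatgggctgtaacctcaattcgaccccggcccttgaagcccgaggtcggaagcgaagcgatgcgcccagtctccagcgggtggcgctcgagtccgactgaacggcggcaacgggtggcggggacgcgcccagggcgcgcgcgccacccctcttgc
Hoxa7: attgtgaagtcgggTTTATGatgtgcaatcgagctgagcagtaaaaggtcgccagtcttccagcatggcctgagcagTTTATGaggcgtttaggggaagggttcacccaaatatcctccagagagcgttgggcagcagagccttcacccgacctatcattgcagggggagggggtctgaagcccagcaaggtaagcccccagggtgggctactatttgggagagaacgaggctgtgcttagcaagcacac

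The window of Hoxa7 held the Cdx motif at 236 and at 173 bases before the start. That of Hoxd4 held it at 45 bases before the start, beside a TATA box at 10 and a CCAAT box at 208 bases. Hoxa5 and Hoxd8 held a CCAAT box, at 204 and at 62 bases. The tested Hox genes had 20 windows of 18 genes in the table. Of these, 4 held the Cdx motif, or 20.0%, against 10.8% of 32851 windows of all genes. They were windows of Hoxa7, Hoxd3, Hoxd4 and Hoxd11, which had means on both sides of 0. The CCAAT box was in 11 of the 20, against 33.8% of all windows, the GC box in 8, against 32.7%, and the TATA box and the Pbx-Hox motif in 2 each, against 12.4% and 7.68%. The Hox windows had a median of 12.5 CpG dinucleotides, beside 6 over all windows. A match describes letters in the window and is no evidence of binding.

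The middle groups, 6 to 8, held members on both sides. Of 7 measured, 2 were positive and 5 negative, with a median of -0.39, and 4 passed at an unadjusted p, 2 on each side. That is 57.1%, against 19.6% of all genes, in groups put together after their values were seen, and not tested as a difference. Hoxa7, a thoracic patterning gene, had -0.78, -1.39 and -0.83, a mean of -0.999 ± 0.339, a 95% interval from -1.55 to -0.45 and an adjusted p by limma of 0.162. All arrays were negative, and it too stayed at an unadjusted p under 0.05 under 13 of 14 alternatives. As for Hoxd4 and Hoxa5, it has 1 probe and no ratio above 3 in size, so the same alternatives left its estimate unchanged. Hoxb6, a gene of the lateral plate mesoderm and trunk, had 0.80, 1.42 and 0.63, a mean of 0.95 ± 0.42, an unadjusted p of 0.0136 and an adjusted p by limma of 0.175. Its paralog Hoxc6 lay on the other side on every array, at -1.11, -0.81 and -0.15, with a mean of -0.69 ± 0.49. Hoxc6 passed by a narrow margin, at an unadjusted p of 0.0495, and missed under 9 of 14 alternatives. As Hoxb6 and Hoxc6 each kept 1 side of 0 on every array, their ranges could not overlap, which adds nothing to the signs. The third paralog, Hoxa6, had -1.14, 0.61 and -0.62, a mean of -0.39 ± 0.90.

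Hoxd8 had the smallest SD of the 31 genes. Its ratios were 0.47, 0.46 and 0.44, a mean of 0.46 ± 0.02, a 1.37-fold difference, with an unadjusted p of 0.0278 and an adjusted p by limma of 0.207. Hoxc8 lay near 0, at -0.02 ± 0.45. Hoxb7, whose promoter is widely used to drive transgenes in the ureteric bud, had -0.20 and 0.48 on arrays 1 and 2 and -5.16 on array 3. Its mean of -1.63 ± 3.08, the lowest of the 31, rested on array 3, and without that array it was 0.14.

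The posterior genes of groups 9 to 13 showed little common direction, with 7 positive and 6 negative means and a median of 0.05. Of 13 measured, 2 passed at an unadjusted p, Hoxd10 and Hoxa13, or 15.4% against 19.6% of all genes. Hoxd10, a gene of the lumbar spinal cord and hindlimb, had 1.05, 0.91 and 0.41, a mean of 0.79 ± 0.34, an unadjusted p of 0.0167 and an adjusted p by limma of 0.181. All arrays were positive, as was the mean of its paralogs Hoxa10 at 0.29 ± 0.36 and Hoxc10 at 0.05 ± 0.18, although each of these had a negative array. Hoxa13, needed for digits and for the genital tubercle, had -2.22, -0.53 and -1.45, a mean of -1.40 ± 0.84, an unadjusted p of 0.0225 and an adjusted p by limma of 0.194. It was negative on each array, a 2.64-fold difference, but the arrays differed by 1.69 from lowest to highest.

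Of the other group 13 genes, Hoxd13 had -1.37 on array 1 and -3.15 on array 3, and Hoxb13 had -0.37 and -2.44. Hoxa13, Hoxb13 and Hoxd13 were thus negative on each array that measured them, which is arrays 1 and 3 alone for Hoxb13 and Hoxd13. Hoxc13 was not, with -0.18, -0.21 and 0.28 and a mean of -0.04 ± 0.27. Of all genes, 22.5% were negative on all 3 arrays, and the share over arrays 1 and 3 was not worked out.

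Of the group 11 genes, which the mesenchyme needs to form a kidney, Hoxa11 was negative on every array and Hoxd11 lay near 0. Hoxa11 had -0.38, -0.45 and -0.25, a mean of -0.36 ± 0.10 and a 95% interval from -0.75 to 0.03. All arrays were negative and the difference was 1.28-fold, with an unadjusted p of 0.0624, just outside the threshold, and an adjusted p by limma of 0.278. It passed at an unadjusted p under 2 of 14 alternatives, array weights at 0.0315 and no variance moderation at 0.0239. Hoxd11 had 0.05, -0.11 and -0.18, a mean of -0.08 ± 0.12 and an interval from -0.48 to 0.32. Its adjusted p by limma was 0.777, and its arrays lay on both sides of 0. The partner genes Eya1 at 0.14 ± 0.76 and Pax2 at -0.33 ± 1.16 also had arrays on both sides, as did Six2 at 0.27 ± 0.35, and Gdnf had 0.32 ± 0.10.

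The group 12 genes had positive means. Hoxc12 had 0.17, 0.63 and 1.75, a mean of 0.85 ± 0.81, and Hoxd12 had 1.18, 0.68 and -0.57, a mean of 0.43 ± 0.90. The arrays ran in opposite order in this pair. In group 9, Hoxc9 at 0.45 ± 0.55 was positive throughout, while Hoxb9 had 0.25, -1.40 and -1.34, a mean of -0.83 ± 0.94. Hoxd9 had a mean of 0.34 ± 1.22. Hoxa9, a gene of the lumbar region and of blood stem cells, had -4.36, 0.86 and 2.84, the widest spread of the 31, and its mean of -0.22 ± 3.72 carries no direction.

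The share of positive means was 33.3% in the Hoxa cluster, 66.7% in Hoxb, 62.5% in Hoxc and 75% in Hoxd, against 49.8% of all genes. This describes few genes and was not tested. Of the 31 counted means, 15 changed side under at least 1 alternative, among them Hoxa2, Hoxa9, Hoxc8 and Hoxd9. Of 9 Hoxa genes, 3 had a positive mean, with a median of -0.22. Of 6 Hoxb genes, 4 were positive, with a median of 0.36, and of 8 Hoxc genes, 5 were, with a median of 0.13. Of 8 Hoxd genes, 6 were positive, with a median of 0.39. Among 27 pairs of measured neighbours along a cluster, 16 had means of the same sign. The share among Hox genes that are not neighbours was not worked out, so this count is no result about neighbours. In the Hoxd cluster the run of positive means reached without a break from Hoxd3 through Hoxd4, Hoxd8 and Hoxd9 to Hoxd10, although Hoxd9 had arrays on both sides of 0. In the Hoxa cluster the neighbours Hoxa5 and Hoxa6 differed by 1.46, with arrays of Hoxa6 on both sides of 0. Some neighbours overlap in RefSeq, namely Hoxb3 with Hoxb4, Hoxd3 with Hoxd4, Hoxd10 with Hoxd11, and Hoxa3 with Hoxa4, Hoxa5 and Hoxa6, so a probe of either may read RNA of both.

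**Figure D3:**
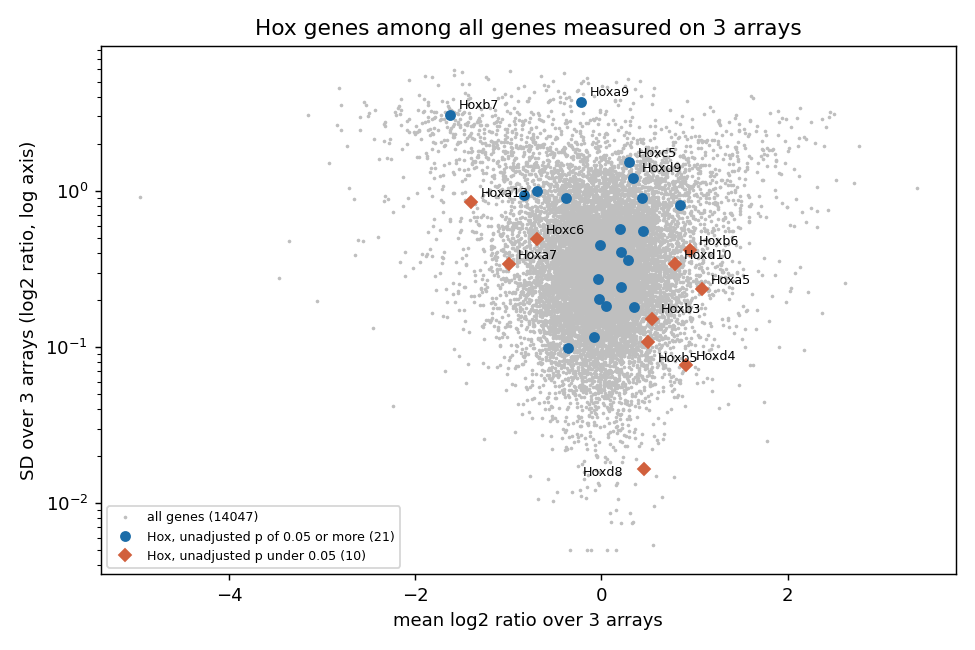
Mean log2 ratio over 3 arrays (horizontal) and its SD over the arrays (vertical, log axis, SDs under 0.005 drawn at 0.005) for 14047 genes in grey and 31 Hox genes in colour. Orange diamonds are the 10 Hox genes with an unadjusted p under 0.05. Hoxd8 sits lowest among the Hox genes, and Hoxa9 and Hoxb7 sit at the top.

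An SD above 1 was found for 4 Hox genes, Hoxa9, Hoxb7, Hoxc5 and Hoxd9, which is 12.9%, and 12.9% of all genes had such an SD. A mean of at least 1 in size was found for 3 Hox genes, or 9.68%, against 8.06% of all genes. These were Hoxa5, Hoxa13 and Hoxb7.

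**Figure D4:**
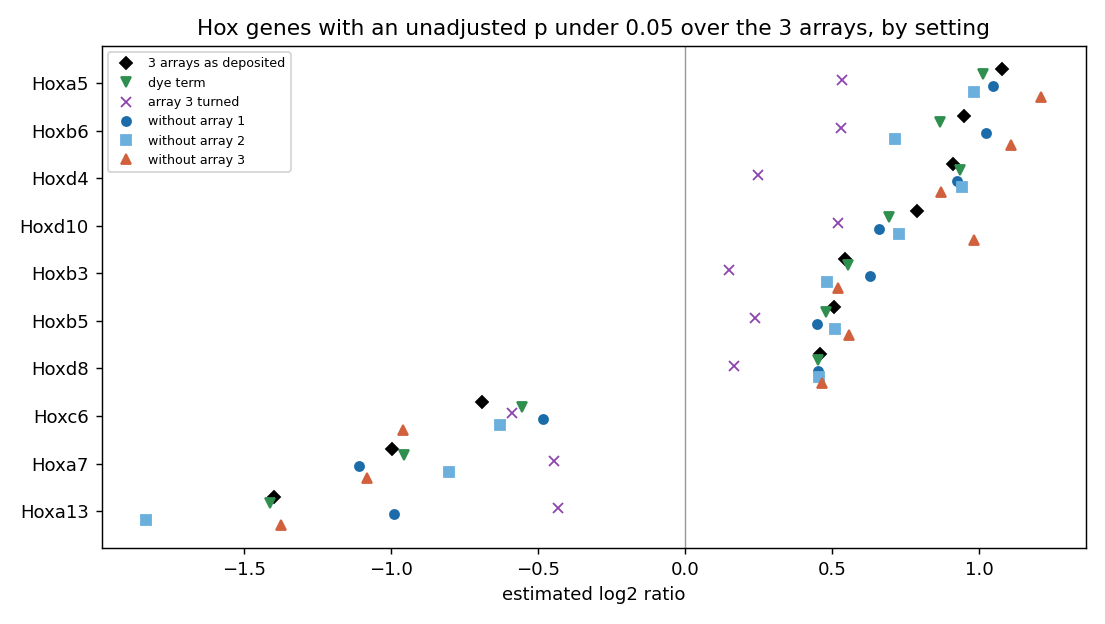
Estimated log2 ratio of the 10 Hox genes with an unadjusted p under 0.05, over the 3 arrays as deposited, with a dye term, with array 3 turned, and with each array left out. All 10 keep their side of 0 in each of these settings, which genes with 1 sign on every array must do when an array is left out. The estimates with array 3 turned lie closest to 0 for every gene but Hoxc6. Turning an array must bring the mean of such genes toward 0, so this is no result about them.

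The TALE partners included some of the larger ratios beside the Hox genes. Of 9 listed, 6 were measured and 4 passed at an unadjusted p, 3 positive and 1 negative, with a median of 0.39, and 0 passed adjustment over all genes by limma. The 4 are 66.7% of those measured, against 19.6% of all genes. Meis1 had 1.05, 1.04 and 0.92, a mean of 1.00 ± 0.07 and an adjusted p by limma of 0.149. Meis2 had 1.19 ± 0.29 and Pbx3 had 0.74 ± 0.38, each positive on all arrays, while Pknox1 had -0.65 ± 0.37 and was negative on all. Meis3 at -0.34 ± 0.25 and Pbx2 at 0.05 ± 0.29 did not pass.

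Few genes that act upstream of the clusters passed. Of 29 listed regulators, 21 were measured, 7 positive and 14 negative, with a median of -0.12, and 1 passed at an unadjusted p on each side, together 9.52% against 19.6% of all genes. These were Cdx2, a caudal factor, at 0.52 ± 0.12 and Lin28a, an RNA-binding protein gene of early embryos, at -0.78 ± 0.45. Cdx1 at -0.26 ± 0.18, Aldh1a2, which makes retinoic acid, at -0.21 ± 0.17, Cyp26a1, which breaks it down, at -0.19 ± 0.23 and Gdf11 at -0.12 ± 0.49 did not pass. Of 42 listed Polycomb and Trithorax genes, which keep Hox genes off or on, 37 were measured, 20 positive and 17 negative, with a median of 0.03. At an unadjusted p 5 passed on the positive side and 4 on the negative side, together 24.3% against 19.6% of all genes, which is near the background and no result about the list. They included Ring1 at -0.65 ± 0.17, Men1 at -0.50 ± 0.08, Pcgf3 at 0.87 ± 0.46 and Pcgf1 at 0.53 ± 0.18. Of 15 listed genes tied to group 11 in the kidney, 14 were measured, 10 positive and 4 negative, with a median of 0.18. Wt1 at 1.75 ± 0.04, Foxd1 at 1.56 ± 0.17 and Wnt4 at 1.03 ± 0.06 passed at an unadjusted p on the positive side and Ret at -0.43 ± 0.11 on the negative side, together 28.6% of the list against 19.6% of all genes.

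Hox genes are also used in limb buds, somites and the spinal cord, and markers of these tissues lay mostly on the negative side, where 9.69% of all genes passed at an unadjusted p. On either side 19.6% of all genes passed, and 49.8% had a positive mean. Of 14 limb bud markers, 10 were negative, with means from -1.95 to 0.50 and a median of -0.59, and 6 passed at an unadjusted p, all negative, or 42.9%. Of 17 measured somite and muscle markers, 13 were negative, with means from -4.96 to 0.62 and a median of -0.62. At an unadjusted p, 6 of these passed on the negative side and 1 on the positive side, together 41.2%. Of 16 measured neural markers, 12 were negative, with a median of -0.35, and 2 passed on the negative side and 1 on the positive side, together 18.8%, near the background. The smallest p of this list was that of the positive gene, Dcx at 1.40 ± 0.29. The 2 negative genes were Tubb3 at -0.60 ± 0.04 and Isl1 at -0.95 ± 0.43. Metanephric mesenchyme markers, which include Hoxa11 and Hoxd11, had 8 positive and 6 negative means among 14 measured, with a median of 0.12. Of these, 3 passed, all positive, or 21.4%. That is near the 19.6% of all genes on either side, while 9.89% of all genes passed on the positive side. Whether the share differs from either was not tested. Of 13 measured ureteric bud markers, 8 were positive, with a median of 0.15, and 2 passed on the positive and 3 on the negative side, together 38.5%. Of 12 markers of Wolffian duct, gonad and cloaca, 10 were negative, with a median of -0.13, and 1 passed on each side, together 16.7%. The part of these tissues in the ratios of Hoxa7, Hoxc6, Hoxa13 and the other Hox genes was not tested.

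**Figure D5:**
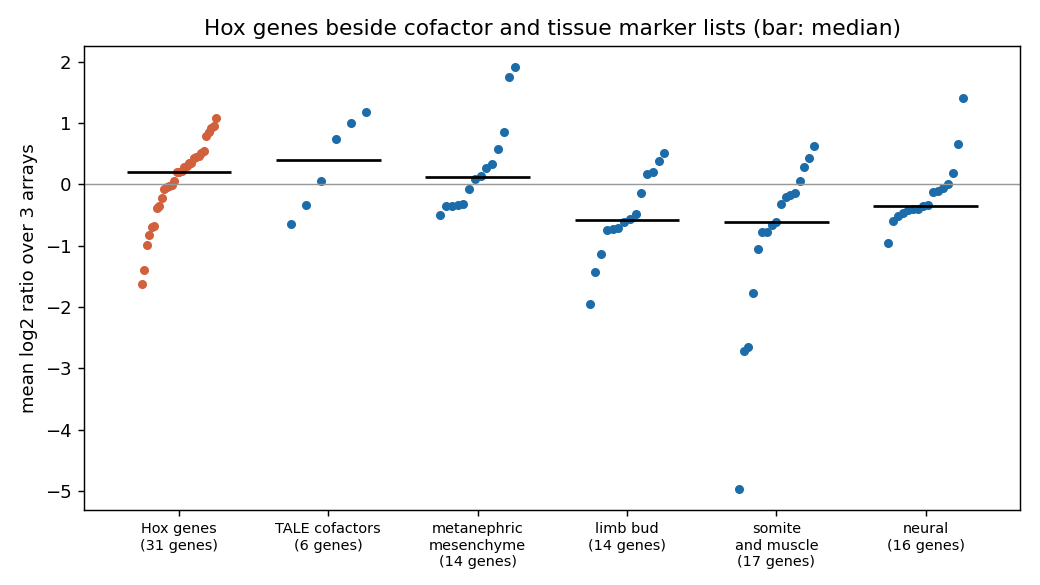
Mean log2 ratio over 3 arrays of each gene, sorted from low to high within its list, for the 31 Hox genes (orange) and for cofactor and tissue marker lists (blue), with the median as a bar. The Hox genes spread from -1.63 to 1.08 around a median of 0.20, while the limb bud and the somite and muscle lists have medians of -0.59 and -0.62.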

How the data were processed

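Per the labels, the authors used Imagene 5.5 for image analysis and then print-tip lowess (20% of the data at each point) and between-array normalization in R, and raised a control channel below 10 to 10. The values they deposited are log2 ratios of the channels, used as given. Turned back to the linear scale, the lowest ratio was 0.01. Intensities were not analysed here, so signal over background is unknown, and precision is limited by the number of arrays. Genome build: not given in the sources used here.

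Of 22702 rows, 21918 were gene probes and 16656 of these had 1 symbol in the platform annotation, 137 several and 5125 none. Symbols matched through Entrez identifiers for 15970 probes, with 0 changes. Probes of 1 symbol with a value on all 3 arrays were averaged. Array 3 correlated above 0 with arrays 1 and 2 and was taken as already turned. The fit used limma 3.58.1 (lmFit, eBayes) under R 4.3.3 and was tested on simulated data. Plots used Matplotlib 3.10.9 in Python 3.11.15. Promoters were read from RefSeq by symbol, and protein sequences were not used here.

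The members and lists were chosen with earlier results of these data known. Each measured Hox gene is named, with single arrays for those with an unadjusted p under 0.05, a mean of at least 0.5 in size, group 11 or several probes, and for some others added after their values were seen. From other lists some of the 4 genes with the smallest p are named, though not all of them, and others are named as examples. For several lists of tissue markers counts alone are given. Alternatives were a dye term, median centring, a common median absolute deviation, array 3 turned, other ways to join probes, a limit of 3 on ratios, values on at least 2 arrays, other variances, array weights and each array left out.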

Additional observations from a re-analysis of the deposited data

How the results depend on the processing

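Under all 14 alternatives the count at an adjusted p of 0.05 by limma stayed at 0 for all genes and for Hox genes, which shows little about stability with 3 arrays. At an unadjusted p the Hox count was 10, and 7 to 12 under alternatives that kept all arrays and their signs. With an array left out it was 4 to 9, the number with the same sign on every remaining array was 17 to 22, which requires agreement of fewer arrays, and the Hox median fell from 0.20 to between 0.12 and 0.14. With array 3 turned, 2 Hox genes passed, 6 had the same sign throughout and the median was 0.038, and the cause was not tested. Direction reversed in 15 of 31 Hox genes under at least 1 alternative. The other 16 include the 10 with an unadjusted p under 0.05, but only 11 of the 14 alternatives change the estimate of any Hox gene. Of these 11, the choices of a probe change Hoxb3 alone, and the limit of 3 changes Hoxa9 and Hoxb7 alone. A gene with 1 sign on every array also cannot reverse when an array is left out, so the kept directions show little about stability. With array 3 turned, Hoxa4 became -0.15, Hoxa6 0.029, Hoxa10 -0.15, Hoxb7 1.81, Hoxb9 0.060, Hoxc4 -0.13, Hoxc12 -0.32 and Hoxd11 0.038. With a dye term, Hoxa2 became 0.016, Hoxa9 0.55, Hoxc5 -0.0052, Hoxc8 0.11 and Hoxc13 0.041, and with ratios limited to 3 in size Hoxa9 became 0.23. With an array left out the means ranged from -1.75 to 1.85 for Hoxa9, -2.68 to 0.14 for Hoxb7, -0.56 to 0.89 for Hoxc5, -0.36 to 0.77 for Hoxd9, -0.27 to 0.17 for Hoxc8, -0.20 to 0.050 for Hoxc13, -0.10 to 0.091 for Hoxa2 and -0.036 to 0.15 for Hoxc10. Without array 1 the genes past an unadjusted p were Hoxa5, Hoxa7, Hoxb9 and Hoxd4, and without array 2 they were Hoxa5, Hoxa6, Hoxa7, Hoxa13, Hoxb6 and Hoxd4.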

Other observations

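Other RNAs of the clusters were measured beside the Hox genes. Hoxaas3, a noncoding RNA whose span overlaps Hoxa3, Hoxa5 and Hoxa6 in RefSeq, had 0.99, 1.27 and 2.49 on the 3 arrays, a mean of 1.58 ± 0.80 (SD, n = 3) and an adjusted p by limma of 0.174. It lay on the side of Hoxa5 on every array, and Hoxa6 was negative on 2 of 3. Hoxa11os, the antisense RNA of Hoxa11, had 0.45, 0.45 and -0.03 and a mean of 0.29 ± 0.28, while Hoxa11 was negative on all arrays. Hoxd3os1 had a mean of 0.07 ± 0.68. Hoxa11os and Hoxd3os1 were chosen after their values were seen.

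The even-skipped homologues lie beside the posterior ends of clusters, Evx1 next to Hoxa13 and Evx2 next to Hoxd13. Evx1 had -1.14, -1.66 and -1.29, a mean of -1.36 ± 0.27 and an adjusted p by limma of 0.149, near the mean of Hoxa13 but with less spread. Evx2 had 0.18 ± 0.13, positive on all arrays, where Hoxd13 was negative on both arrays that measured it. Of the 22 measured genes listed as neighbours, cluster RNAs and related homeobox genes, 11 were positive and 11 negative, with a median of 0.05, and 3 passed at an unadjusted p on the positive side and 2 on the negative side. Together that is 22.7%, near the 19.6% of all genes, and no result about these genes.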
